A study of Mus musculus with 8 samples.

Results

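The genes described here are 9 transcription factors that specify interneurons of the hindbrain and spinal cord, namely *Lbx1*, *Pax2*, *Pax8*, *Lhx1*, *Lhx5*, *Ptf1a*, *Tlx3*, *Prrxl1* (also named *Drgx*) and *Evx1*. They were taken by name from the table of reads aligned to the C57BL/6J (B) genome, which holds 49585 genes, and all 9 were among the 23113 genes tested. The study asked how maternal cadmium (Cd) exposure alters gene expression in the newborn brain. Poly(A) RNA was sequenced from whole brains of 8 newborn B × C females, that is, F1 pups of C57BL/6J mothers and CAST/EiJ fathers, labelled postnatal day 1. Mothers of 4 pups received 0 ppm Cd and mothers of the other 4 received 50 ppm Cd, given as CdCl2 in drinking water before mating and through gestation. Each pup came from a different litter, and RNA was taken from a portion of the pulverized frozen brain. All 8 pups shared the same hybrid genotype, sex and age.

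In the dorsal hindbrain and spinal cord, postmitotic neurons acquire an excitatory or an inhibitory identity through opposing homeodomain and paired-box factors. Ptf1a and its downstream partners Pax2, Lhx1 and Lhx5 favor inhibitory (GABAergic and glycinergic) neurons, whereas Tlx3 and Prrxl1 mark excitatory (glutamatergic) neurons of the somatosensory relay, and Lbx1 is shared by both classes. Several of these factors are also used outside the cord and hindbrain, for example *Lhx1* and *Lhx5* in Purkinje and Cajal-Retzius cells, *Tlx3* and *Prrxl1* in sensory ganglia, and *Pax8* in thyroid and kidney. In whole-brain RNA, fewer cells of a type and less RNA per cell cannot be told apart.

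RefSeq promoter windows of the GRCm38.p6 build were matched for 7 of the 9 factors, with 3 windows for *Pax2* and none for *Lbx1* or *Lhx5*. The 250 bases before the start site are shown for *Pax8*, *Tlx3* and *Lhx1*, which are an inhibitory-lineage gene with a higher mean at 50 ppm, an excitatory-lineage gene and an abundant gene with little difference between doses, respectively. They lie at chr2:24475600-24475849, chr11:33203589-33203838 and chr11:84525535-84525784, each on the minus strand, and are written 5′ to 3′ in the direction of the gene. Capitals mark the CCAAT box and the nuclear receptor half-site AGGTCA, on either strand.
Pax8: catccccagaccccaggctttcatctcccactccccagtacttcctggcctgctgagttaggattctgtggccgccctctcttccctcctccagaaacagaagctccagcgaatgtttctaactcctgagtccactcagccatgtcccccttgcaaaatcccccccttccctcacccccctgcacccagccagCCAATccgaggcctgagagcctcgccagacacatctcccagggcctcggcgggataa
Tlx3: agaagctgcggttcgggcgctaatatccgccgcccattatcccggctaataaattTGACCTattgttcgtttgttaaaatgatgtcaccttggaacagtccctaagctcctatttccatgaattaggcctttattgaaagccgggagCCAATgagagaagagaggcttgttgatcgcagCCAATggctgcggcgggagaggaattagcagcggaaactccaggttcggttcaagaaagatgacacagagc
Lhx1: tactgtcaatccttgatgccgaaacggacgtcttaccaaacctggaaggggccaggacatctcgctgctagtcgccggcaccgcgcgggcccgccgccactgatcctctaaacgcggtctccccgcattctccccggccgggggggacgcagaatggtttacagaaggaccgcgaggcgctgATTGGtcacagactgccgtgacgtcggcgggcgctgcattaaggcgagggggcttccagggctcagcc
CCAAT was found in the windows of 4 factors, *Pax8*, *Tlx3* (at 2 positions), *Lhx1* and *Ptf1a*, and in 33.8% of all 32851 promoter windows of this length. AGGTCA was found for *Tlx3* and in 14% of all windows. CAGCTG, a palindromic E-box of the kind that Ptf1a-class bHLH proteins bind, occurred in 1 *Pax2* window and in 13% of all windows. TAATTA, a palindromic homeodomain core, occurred in no window of the 7 factors and in 4.84% of all windows. Both strands were searched, and the motifs do not overlap each other in the windows shown.

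Library totals ranged from 22916434 to 30708087 counts, so that 3 counts equalled 0.098 to 0.132 CPM (counts scaled to library size), and values near that level rest on a handful of reads. One library in each group stood apart from the rest for these genes. The brain labelled 0 ppm replicate 1 held the lowest CPM of 8 of the 9 factors, and 50 ppm replicate 1 held the highest CPM of 7 of the 9. Replicate numbers follow the order of the records only and do not pair samples. Results are therefore given with and without these 2 libraries. They were picked by the values of these same factors. Leaving out the lowest control brain and the highest exposed brain lowers a positive difference by construction, so it is not an independent check.

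The mean CPM was higher at 50 ppm for 8 of the 9 factors, but no factor passed the adjusted threshold of 0.05 in edgeR's quasi-likelihood test, against 0.0173% of all genes tested. The largest log2 fold changes were those of *Prrxl1*, *Lbx1*, *Pax8* and *Pax2*, which had unadjusted p-values under 0.05 (4 of 9, all higher at 50 ppm, against 2.31% of all genes tested that were higher). With both libraries named above left out, 1 of 9 remained under that value. The log2 fold changes of the 9 factors ran from -0.0071 to 2.71 with a median of 0.72, compared with a median of -0.0032 over all genes tested. Without the 2 libraries the median of the 9 factors was 0.26. *Pax2* was the 1 factor of 9 for which each 50 ppm brain lay above each 0 ppm brain, an arrangement found for 1.19% of all genes tested.

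**Figure D1:**
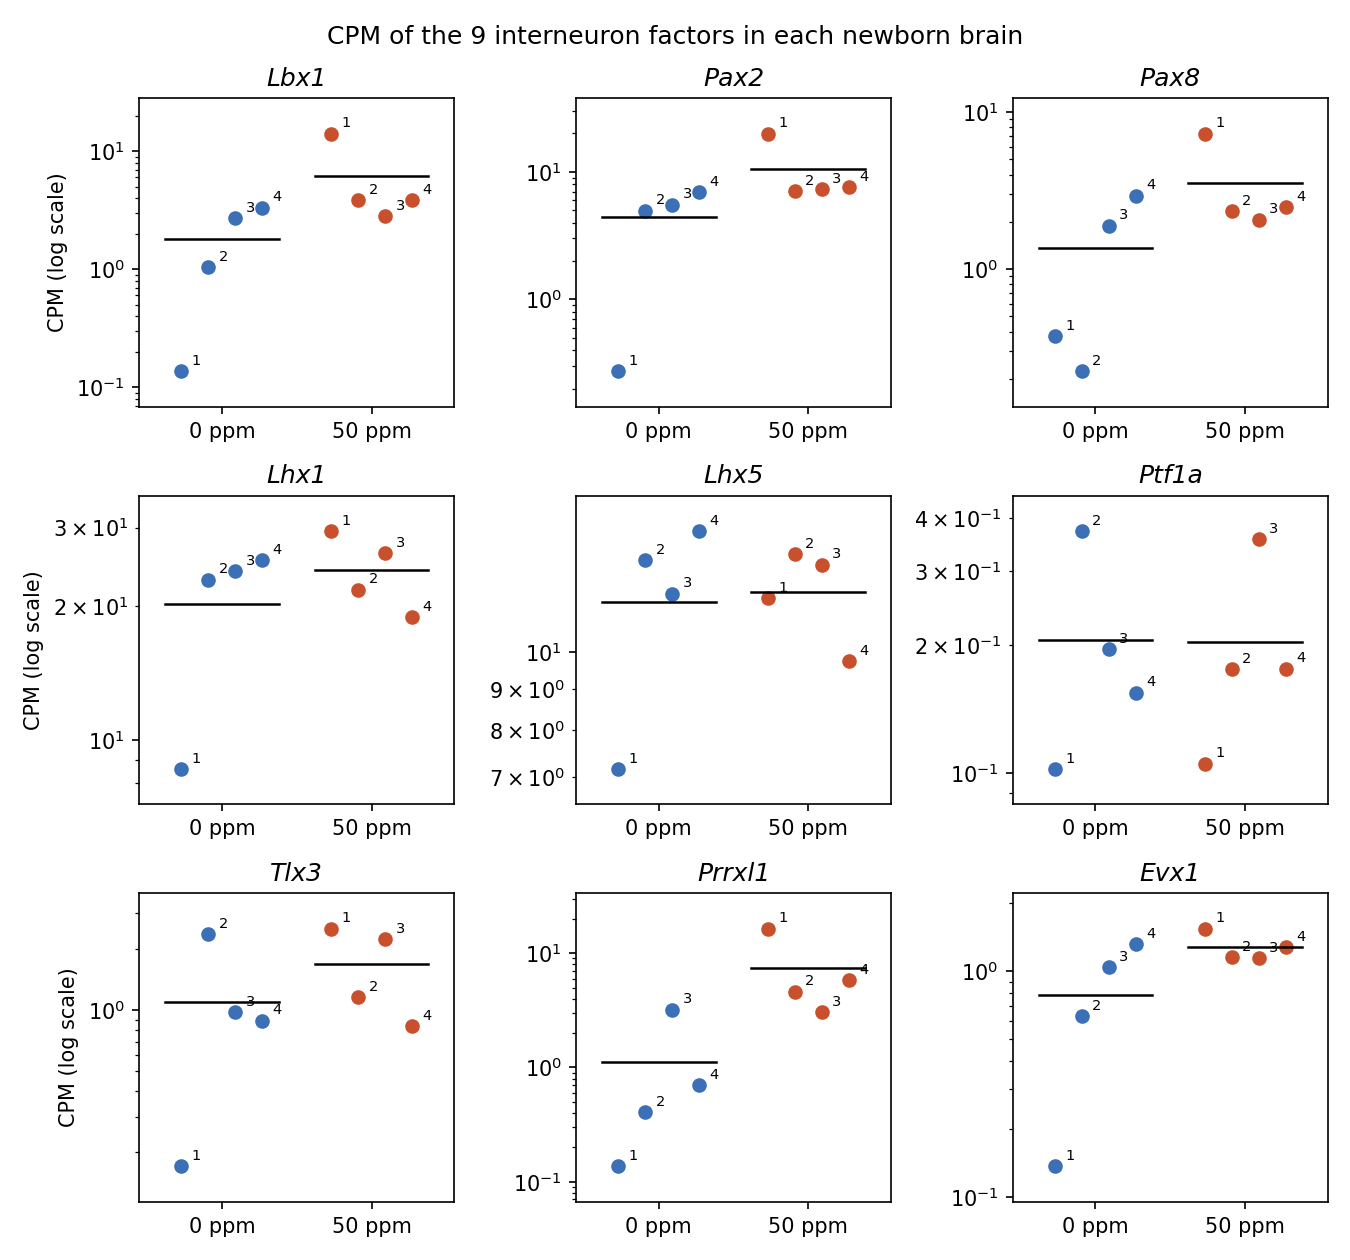
CPM of each interneuron factor (log scale, 1 panel a gene) in the 4 brains at 0 ppm (blue) and the 4 at 50 ppm (red), with replicate numbers beside the points and a line at the group mean. Replicate 1 at 0 ppm was the lowest point in 8 panels and replicate 1 at 50 ppm the highest in 7.

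*Lbx1* (19: 45232684 to 45235812, minus strand) is required for dorsal interneurons of the somatosensory relay, both excitatory and inhibitory. It stood at 0.137, 1.04, 2.71 and 3.33 CPM in replicates 1 to 4 at 0 ppm and at 14.1, 3.83, 2.82 and 3.84 CPM in replicates 1 to 4 at 50 ppm. Of the exposed brains, 3 were thus above every control brain, and the 0 ppm replicate 1 value rests on 4 counts. The means were 1.80 ± 1.47 CPM and 6.15 ± 5.33 CPM (SD, n = 4 each), a log2 fold change of 1.78 ± 0.55 (SE) with an unadjusted p-value of 0.00442 and an adjusted p-value of 0.93. Permuting the dose labels exactly (two-sided, log2 CPM) gave p = 0.0571, where the smallest p this design allows is 0.0286. Replicate 1 at 50 ppm held 3.69 times the median of the other exposed brains, and replicate 1 at 0 ppm held 0.050 times the median of the other control brains. Without these 2 brains, the log2 fold change was 0.57 (unadjusted p = 0.0539).

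Among the inhibitory-lineage factors, *Pax2* (19: 44756045 to 44837871, plus strand), a paired-box factor of GABAergic and glycinergic interneurons that also acts at the midbrain-hindbrain boundary, had CPM of 0.273, 4.95, 5.52 and 6.97 at 0 ppm and of 19.9, 7.06, 7.35 and 7.54 at 50 ppm. The groups did not overlap, yet the highest control brain (6.97 CPM) and the lowest exposed brain (7.06 CPM) were nearly equal, and replicate 1 of each group lay far from its group. The means were 4.43 ± 2.90 CPM and 10.5 ± 6.29 CPM (SD, n = 4 each). The log2 fold change was 1.25 ± 0.47 (unadjusted p = 0.0162, adjusted p = 0.999), and the exact permutation test reached its smallest value, p = 0.0286, before any adjustment. Without the 2 libraries the log2 fold change was 0.34 (unadjusted p = 0.059).

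*Pax8* (2: 24420560 to 24475599, minus strand), a close relative of *Pax2* that shares its interneuron domain, showed 0.375, 0.223, 1.89 and 2.94 CPM in control brains and 7.30, 2.35, 2.07 and 2.47 CPM in exposed brains. Both of the lowest values came from control brains, replicate 2 having 6 counts and replicate 1 having 11, but replicate 4 at 0 ppm exceeded 3 of the exposed brains. The log2 fold change was 1.40 ± 0.53 (unadjusted p = 0.0162, adjusted p = 0.999), with p = 0.171 in the exact permutation test, and was 0.45 without the 2 libraries. Of the exonic bases of *Pax8*, 6.06% lie opposite exons of *Gm13415*. Since *Pax8* also marks thyroid and kidney, genes of those organs were examined, and the summed CPM of the 7 genes ranged from 12.6 to 28.8 at 0 ppm and from 9.05 to 21.8 at 50 ppm, with 1 of the 7 genes below the filter.

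*Lhx1* (11: 84518284 to 84525535, minus strand) and *Lhx5* (5: 120431699 to 120441223, plus strand) encode LIM-homeodomain proteins that maintain *Pax2* and the inhibitory program in the dorsal cord. *Lhx1* stood at 8.60, 22.9, 23.9 and 25.4 CPM at 0 ppm and at 29.5, 21.8, 26.3 and 18.9 CPM at 50 ppm. *Lhx5* stood at 7.17, 13.02, 11.8 and 14.1 CPM at 0 ppm and at 11.7, 13.2, 12.8 and 9.75 CPM at 50 ppm. For both genes the groups overlapped widely and replicate 1 at 0 ppm was the low sample. The log2 fold change was 0.26 ± 0.23 for *Lhx1* (adjusted p = 0.999) and 0.047 ± 0.17 for *Lhx5* (adjusted p = 0.999). Left without the 2 libraries, both turned negative, at -0.099 for *Lhx1* and -0.11 for *Lhx5*. The Cajal-Retzius list (*Reln*, *Trp73*, *Calb2*, *Ndnf*, *Cxcr4*, *Nhlh2*, *Ebf3*), which covers another cell type that uses both genes, summed to between 594 and 625 CPM at 0 ppm and between 527 and 694 CPM at 50 ppm. The cerebellar list, with Purkinje cell genes such as *Car8* and *Calb1*, summed to between 517 and 762 CPM at 0 ppm and between 602 and 687 CPM at 50 ppm, lowest in 0 ppm replicate 1.

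*Ptf1a* (2: 19445663 to 19447501, plus strand), the bHLH factor that commits progenitors to the inhibitory fate, was close to the detection limit with 3, 10, 6 and 4 counts at 0 ppm and 3, 5, 10 and 4 counts at 50 ppm. These equal 0.102 to 0.372 CPM in control and 0.105 to 0.357 CPM in exposed brains, and no difference was detectable at this depth (log2 fold change -0.0071 ± 0.56, adjusted p = 0.999). Of its exonic bases, 40.4% lie opposite exons of *Ptf1aos*, and the strand setting of the count is not given in the sources used here, so its counts are uncertain.

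Of the excitatory-lineage factors, *Prrxl1* (14: 32599407 to 32649246, plus strand), a paired-like homeodomain factor of nociceptive relay neurons and sensory ganglia, differed most. Control brains held 0.137, 0.409, 3.20 and 0.697 CPM, and exposed brains held 16.4, 4.60, 3.07 and 5.78 CPM. Of the exposed brains, 3 exceeded every control brain, while replicate 3 at 50 ppm fell just below replicate 3 at 0 ppm. Means were 1.11 ± 1.41 CPM and 7.46 ± 6.05 CPM (SD, n = 4 each), a ratio of means of 6.71. The log2 fold change was 2.71 ± 0.59 with an unadjusted p-value of 0.000226, which ranked 15 among 23113 genes, and an adjusted p-value of 0.299. The exact permutation test gave p = 0.0571. Without the 2 libraries *Prrxl1* had a log2 fold change of 1.60 (unadjusted p = 0.000438, adjusted p = 0.307), the 1 factor of 9 still under 0.05 before adjustment. Leaving out 0 ppm replicate 3 brought its adjusted p to 0.00457 in edgeR with a log2 fold change of 4.19. That brain held the highest *Prrxl1* value of the controls, so leaving it out raises the difference by construction and is not an independent check. In that fit 20 of 22727 genes tested passed the adjusted threshold. It was the 1 factor whose identifier in the table aligned to the CAST/EiJ (C) genome could be matched. There it had 3, 10, 97 and 18 counts at 0 ppm and 451, 128, 85 and 129 counts at 50 ppm, next to 4, 11, 98 and 18 and 467, 131, 86 and 131 counts in the B alignment of the same reads, and the log2 fold change was 2.72 (adjusted p = 0.313).

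*Tlx3* (11: 33200752 to 33203589, minus strand), the homeodomain selector of the glutamatergic fate, had a smaller log2 fold change than *Prrxl1*. Its CPM were 0.171, 2.38, 0.980 and 0.890 at 0 ppm and 2.53, 1.16, 2.25 and 0.838 at 50 ppm. One exposed brain exceeded every control brain, and replicate 2 at 0 ppm was the second highest of all 8. The log2 fold change was 0.64 ± 0.47 (adjusted p = 0.999). It was 0.029 without the 2 libraries, 0.27 without 0 ppm replicate 1 alone, 0.38 without 50 ppm replicate 1 alone and 1.33 without 0 ppm replicate 2 alone (unadjusted p = 0.00932, adjusted p = 1), and limma-voom with all brains gave 1.07 (unadjusted p = 0.0464, adjusted p = 0.999). *Tlx3* and *Prrxl1* are also expressed by sensory neurons outside the brain, and markers of these were therefore compared. The 16 sensory ganglion genes summed to 731 to 814 CPM at 0 ppm and 783 to 915 CPM at 50 ppm. Of these genes, 1 was listed at 0 in all libraries. Most of the sum came from *Ntrk2* (means 484 and 525 CPM) and *Ntrk3* (203 and 216 CPM), so it says little about the other genes. *Scn10a* averaged 0.294 and 0.434 CPM and *Trpv1* 0.401 and 0.282 CPM. *Prph*, a neurofilament protein of peripheral and motor neurons, lay between 2.12 and 10.1 CPM in control and between 10.6 and 16.5 CPM in exposed brains (log2 fold change 1.16 ± 0.28, adjusted p = 0.42). The 6 Schwann cell genes summed to between 41.2 and 53.3 CPM in control and between 47.2 and 68.6 CPM in exposed brains. The part of ganglion or nerve RNA in the *Prrxl1* difference was not tested.

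*Evx1* (6: 52313498 to 52318378, plus strand), the factor of commissural V0 interneurons of the ventral cord and hindbrain, stood at 0.137, 0.632, 1.04 and 1.32 CPM at 0 ppm and at 1.54, 1.16, 1.14 and 1.28 CPM at 50 ppm. Of the exposed brains, 1 lay above every control brain. The coefficient of variation was 14.5% in exposed and 65.7% in control brains, the latter falling to 34.5% without 0 ppm replicate 1, whose value rests on 4 counts. The log2 fold change was 0.72 ± 0.39 (adjusted p = 0.999, exact permutation p = 0.143), 0.36 without 0 ppm replicate 1 and 0.26 without replicate 1 of both groups. A small share of its exonic bases, 2.54%, lies opposite *Evx1os*.

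Expressed per kilobase of exon, the order of the levels at 0 ppm was *Lhx1* (4.96 ± 1.92 CPM per kb), *Lhx5* (4.29 ± 1.14), *Pax2* (0.818 ± 0.54), *Lbx1* (0.726 ± 0.59), *Tlx3* (0.721 ± 0.60), *Evx1* (0.272 ± 0.18), *Prrxl1* (0.266 ± 0.34), *Pax8* (0.224 ± 0.21) and *Ptf1a* (0.137 ± 0.078; SD, n = 4). Only the step from *Lhx5* to *Pax2* exceeded the spread of both neighbors. At 50 ppm *Lhx1* (5.92 ± 1.16 CPM per kb) and *Lhx5* (4.42 ± 0.58) still led, and *Lbx1* (2.47 ± 2.14), *Pax2* (1.93 ± 1.16) and *Prrxl1* (1.79 ± 1.45) came next. *Lhx1* and *Lhx5* together made up 92.2% of the summed CPM of the 9 factors in 0 ppm replicate 1, between 69.7% and 78.2% in the other control brains, 40.0% in 50 ppm replicate 1 and between 56.6% and 67.3% in the other exposed brains.

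Ratios between factors within a library do not depend on library size, and 7 pairs were compared as differences of log2 CPM. The raw count ratio of *Prrxl1* to *Tlx3* was 0.80, 0.17, 3.27 and 0.78 at 0 ppm and 6.49, 3.97, 1.37 and 6.89 at 50 ppm. The ratio was above every control brain in 3 exposed brains, and the mean log2 ratio differed by 2.24 between doses (exact permutation p = 0.0571, 0.3 after Benjamini-Hochberg adjustment over the 7 pairs) and by 2.03 without replicate 1 of each group. The *Lbx1* to *Evx1* ratio differed by 1.08 (exact permutation p = 0.0857, adjusted 0.3), by 0.67 without 50 ppm replicate 1 and by 0.39 without replicate 1 of each group. By contrast, the mean log2 ratio of *Lbx1* to *Pax2* was -1.24 ± 0.64 at 0 ppm and -0.92 ± 0.36 at 50 ppm (SD, n = 4 each, exact permutation p = 0.514), and that of *Lhx1* to *Lhx5* was 0.73 ± 0.33 and 1.01 ± 0.25 (exact permutation p = 0.257). The ratio of *Pax2* to *Pax8* varied widely in control brains, from 0.73 to 22.2 in counts, and had a difference between doses of -0.018 (exact permutation p = 0.971). Without replicate 1 of each group, the differences were 0.35 for *Lbx1* to *Pax2*, 0.0088 for *Lhx1* to *Lhx5* and -0.63 for *Pax2* to *Pax8*.

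**Figure D2:**
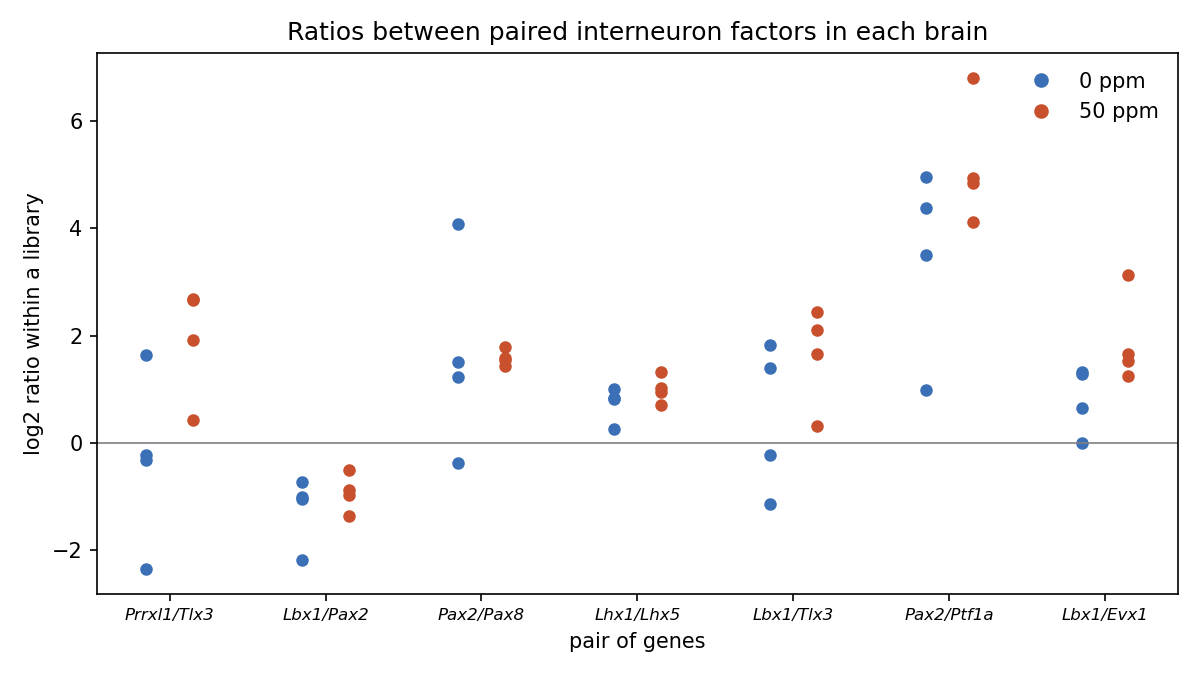
Log2 ratio of the CPM (prior count 2) of 7 pairs of interneuron factors within each library, blue for 0 ppm and red for 50 ppm, 4 points each. The ratio of *Prrxl1* to *Tlx3* was above 0 in every exposed brain and in 1 control brain.

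Genes that mark position along the hindbrain and cord were examined beside the factors. Of 21 *Hox* genes of the anterior and middle clusters, 12 were tested and 7, among them *Hoxa5* and *Hoxc6*, were listed at 0 in all libraries. All 12 *Hox* genes tested here had a positive log2 fold change, with a median of 1.96. Of these, 3 passed the adjusted threshold, all higher at 50 ppm (against 0.0173% of all genes tested). They were *Hoxb8* (0 to 0.077 CPM in control and 2.28 to 6.31 CPM in exposed brains, adjusted p = 4.65e-06), *Hoxb7* (0 to 0.116 and 0.737 to 2.53 CPM, adjusted p = 0.00298) and *Hoxb6* (0 to 0.465 and 1.25 to 10.2 CPM, adjusted p = 0.0401). The summed CPM of the *Hox* list was 0.034, 0.82, 19.2 and 33.5 at 0 ppm and 133, 47.8, 30.4 and 42.1 at 50 ppm. The same 2 libraries were thus at its ends, and the 12 tested genes were all lowest, or tied at 0 for lowest, in 0 ppm replicate 1 and all highest in 50 ppm replicate 1.

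The summed CPM of the factors other than *Lhx1* and *Lhx5* followed nearly the same order, with 1.33, 10.01, 15.5 and 16.3 at 0 ppm and 61.8, 20.3, 19.1 and 21.9 at 50 ppm. Where the *Hox* sums of a control and an exposed brain were closest (33.5 in 0 ppm replicate 4 and 30.4 in 50 ppm replicate 3), the sums of these 7 factors were 16.3 and 19.1 CPM. With the mean log2 CPM of the tested *Hox* genes, which itself differed between doses, added to the fit, the median log2 fold change of the 9 factors was -0.39, and *Lbx1* (-0.75), *Pax2* (-0.39), *Pax8* (-0.98), *Lhx1* (-0.42), *Lhx5* (-0.30) and *Evx1* (-0.58) had negative values, while *Prrxl1* was at 0.057 (unadjusted p = 0.93) and *Tlx3* at 0.54 (unadjusted p = 0.477). Of these, *Pax8* had an unadjusted p under 0.05 (0.00991, adjusted p = 0.999). The part of hindbrain and cord tissue content in these differences was not tested.

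**Figure D3:**
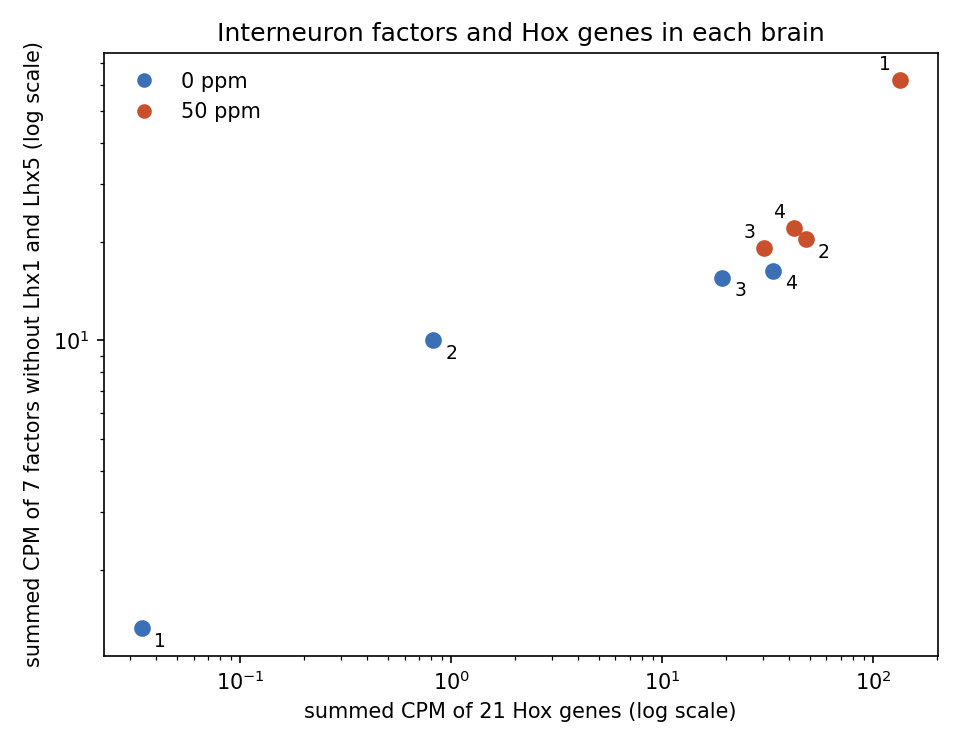
Summed CPM of 7 interneuron factors (all but *Lhx1* and *Lhx5*) against the summed CPM of 21 *Hox* genes, both on log scales, with 1 point a brain, blue for 0 ppm and red for 50 ppm, and replicate numbers beside the points. Replicate 1 at 0 ppm (0.034 and 1.33) and replicate 1 at 50 ppm (133 and 61.8) lie at opposite corners.

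**Figure D4:**
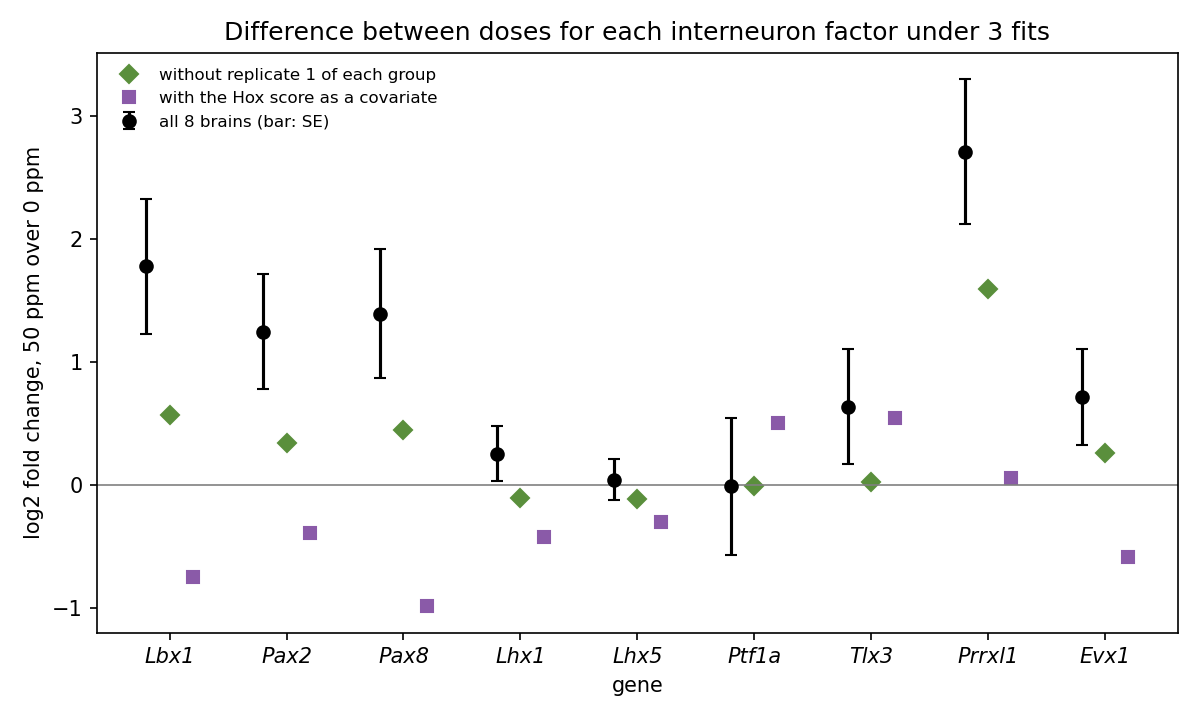
Log2 fold change (50 ppm over 0 ppm) of each factor with all 8 brains (black, bar 1 SE), without replicate 1 of each group (green) and with the mean log2 CPM of the *Hox* genes as a covariate (purple). For *Prrxl1* the values were 2.71, 1.60 and 0.057.

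Other genes of these lineages were counted in groups. Of 14 dorsal progenitor factors, which act upstream in dividing cells, none passed the adjusted threshold, 4 had positive and 10 had negative log2 fold changes, and the median was -0.33. *Pax7* averaged 10.1 CPM at 0 ppm and 7.22 CPM at 50 ppm (log2 fold change -0.49), *Neurog2* 4.49 and 2.83 CPM (-0.65) and *Gsx2* 1.11 and 0.776 CPM (-0.51), each with an adjusted p of 0.999. Of 19 other dorsal interneuron factors none passed, 11 were positive and 8 negative, and the median was 0.087. *Mafa*, a bZIP factor of dorsal horn and sensory neurons, averaged 1.10 and 3.19 CPM (log2 fold change 1.53 ± 0.38, adjusted p = 0.483), *Barhl2* 8.88 and 5.98 CPM (-0.56 ± 0.18, adjusted p = 0.999) and *Foxd3* 0.278 and 0.606 CPM (1.09 ± 0.38, adjusted p = 0.999). The 16 ventral interneuron factors had a median of -0.061 with 4 positive and 12 negative values and none past the threshold. *Lhx3* averaged 0.172 and 0.395 CPM and *Nkx2-2* 6.20 and 7.63 CPM (both adjusted p = 0.999). The factors described above therefore had a higher median (0.72) than these 3 groups, a difference given without a test. Higher levels were not confined to them. Of the 19 other dorsal factors, 5 were higher at 50 ppm with an unadjusted p under 0.05 in edgeR and 2 were lower. Of all 23113 genes tested, 534 (2.31%) were higher and 332 were lower with such a p. *Skor1* was among the 5 (log2 fold change 1.04, unadjusted p = 0.0218). That group also holds *Lhx2* and *Lhx9*, which are in the forebrain and hypothalamic lists too.

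Transmitter genes, which set the signal a neuron releases, were compared in the same way. Of 16 genes, 15 were tested, none passed the adjusted threshold and the median log2 fold change was 0.00039, with *Slc18a3* listed at 0 in all libraries. *Slc6a5*, the glycine transporter of inhibitory neurons of the cord and hindbrain, ranged from 0.239 CPM in 0 ppm replicate 1 to 27.0 CPM in control brains and from 21.02 to 56.1 CPM, the last in replicate 1, in exposed brains (log2 fold change 1.41 ± 0.62, unadjusted p = 0.036, adjusted p = 0.999). *Chat*, the acetylcholine-synthesizing enzyme, averaged 0.668 and 1.00 CPM (log2 fold change 0.57 ± 0.30) and *Npy* 21.7 and 25.2 CPM (0.22 ± 0.11), both with an adjusted p of 0.999. Of 13 brainstem nucleus genes none passed, 10 were positive and the median was 0.14. The noradrenergic genes *Dbh* (1.52 and 4.02 CPM, adjusted p = 0.921) and *Slc6a2* (4.90 and 13.6 CPM, adjusted p = 0.999) and the glycine receptor gene *Glra1* (1.19 and 3.26 CPM, adjusted p = 0.79) had the smallest p-values. *Dbh* was at 1.12 CPM and *Slc6a2* at 2.60 CPM in 50 ppm replicate 1, the lowest of the exposed brains.

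Lastly, genes with the most similar profile across the 8 libraries were sought among the 14594 genes with a mean CPM of at least 1, by Pearson's r of log2 CPM with the mean z-score of the 9 factors. The mean z-score was -1.91 in 0 ppm replicate 1 and 0.78 in 50 ppm replicate 1, and lay between -0.069 and 0.51 in the other 6 brains. The closest were *Skor2* (r = 0.98, Spearman's rho = 0.69), *Skor1* (r = 0.98, rho = 0.69), *Ebf3* (r = 0.97, rho = 0.76), *Fndc5* (r = 0.96, rho = 0.55) and *Rassf4* (r = 0.95, rho = 0.81). Without replicate 1 of each group, r was 0.51, 0.57, 0.30, 0.11 and 0.88, so that for all but *Rassf4* the likeness rested largely on these 2 libraries. *Skor1*, a corepressor gene of dorsal interneurons, had 0.683 CPM in 0 ppm replicate 1 and 17.6 CPM in 50 ppm replicate 1. Among the factors themselves, *Pax2* (r = 0.98), *Lhx1* (r = 0.97) and *Evx1* (r = 0.96) tracked the shared mean most closely and *Ptf1a* least (r = 0.32); each is part of that mean.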

How the data were processed

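The authors deposited counts, the number of reads on each gene in each brain without normalization, for alignments to the B and C genomes. Per the labels and the paper's methods, NEBNext Ultra Directional libraries of poly(A) RNA were sequenced single-end, after which the authors ran read trimming, STAR alignment and htseq-count. Tool versions and the strand setting are not given in the sources used here.

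Genes at 0 in more than 2/3 of the libraries (over 5 of 8) were left out. Counts (22916434 to 30708087 per library for B and 20229869 to 27198662 for C) were normalized by TMM and tested with edgeR 4.0.16 (glmQLFit, glmQLFTest, treatment as the only term) in R 4.3.3, with Benjamini-Hochberg adjustment over all genes tested and a threshold of 0.05. The SE is the absolute log2 fold change over the square root of F. Single factors and ratios of factors were compared on log2 CPM (prior count 2) by exact permutation of the dose labels, two-sided, with 70 arrangements. The p-values measure the spread between pups of separate litters. Symbols and coordinates are from GENCODE M21 (GRCm38), which also names 49326 of the 49585 identifiers, and promoters from RefSeq. Code was tested on simulated data. Figures were drawn with matplotlib.

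The members and lists were chosen with earlier results of these data known. Named genes are the 9 members, the genes of each other list with an adjusted p under 0.05 or else the 3 with the smallest p, and the 5 genes with the most similar profile. Some of these genes are not reported here. Genes listed at 0, and list members named only to say what a list holds, were named after their values were seen. Alternatives were DESeq2 1.42.0, its size factors, other filters, edgeR's robust fit, limma-voom (limma 3.58.1), the *Hox* and forebrain scores as covariates, the C alignment, each library left out, and, added after seeing the data, both replicates 1 left out and ratios without either or both.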

Additional observations from a re-analysis of the deposited data

Results flagged for a closer look

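In 4 of the 18 groups of 4 values (9 factors at 2 doses), 1 brain lay far from the others, measured as its gap to the nearest brain over the range of the group. Chance alone flags about 1 in 20 groups where the 4 values follow a normal distribution, which CPM need not do. For *Pax2*, 0 ppm replicate 1 was low (0.273 CPM, gap 0.888 of the range) and 50 ppm replicate 1 was high (19.9 CPM, gap 0.936). For *Pax8*, 50 ppm replicate 1 was high (7.30 CPM, gap 0.861). For *Lhx1*, 0 ppm replicate 1 was low (8.60 CPM, gap 0.905). The 4 flags fell on the same 2 libraries, 2 on each, and genes in a library are not independent of each other.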

How the results depend on the processing

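No factor was called in the main fit (all 8 brains, filtered as above, treatment as the only term), which called 4 of 23113 genes. Without a filter 2 factors were called (*Lbx1*, adjusted p = 0.0213, and *Prrxl1*, adjusted p = 0.000191), among 52 of all 27077 genes tested there. With the forebrain score as a covariate 1 was called (*Prrxl1*, adjusted p = 0.00396), among 4 of 23113 genes. The number ranged from 0 to 1 with a library left out, where *Prrxl1* was called without 0 ppm replicate 3, among 20 of 22727 genes. The causes were not tested. The number with an unadjusted p under 0.05 was 4. It was 1 with DESeq2, with the robust fit, with the *Hox* covariate, with the forebrain covariate and without both replicates 1, and ranged from 1 to 5 with a library left out, the lowest without 50 ppm replicate 1. The median log2 fold change was -0.39 with the *Hox* covariate and ranged from 0.36 (without 0 ppm replicate 1) to 1.07 with a library left out. Reversed log2 fold changes were those of *Lbx1* (-0.75), *Pax2* (-0.39), *Pax8* (-0.98), *Lhx1* (-0.42), *Lhx5* (-0.30), *Evx1* (-0.58) and *Ptf1a* (0.51) with the *Hox* covariate; of *Lhx5* (-0.029) and *Ptf1a* (0.31) with the forebrain covariate; of *Lhx1* (-0.099) and *Lhx5* (-0.11) without both replicates 1; of *Lhx5* without 0 ppm replicate 1 (-0.13) and without 50 ppm replicate 2 (-0.0093), with a range of -0.13 to 0.16 over the libraries left out; and of *Ptf1a* with limma-voom (0.13), without 0 ppm replicate 2 (0.42) and without 50 ppm replicate 1 (0.22), 2 (0.060) or 4 (0.047), with a range of -0.42 to 0.42. The difference in log2 ratio of *Pax2* to *Pax8* was -0.68 without 0 ppm replicate 1 and 0.033 without 50 ppm replicate 1. With a prior count of 0.5 the log2 CPM difference of *Ptf1a* was 0.00039. The C alignment could be used for *Prrxl1* only. No paired analysis was possible because the labels give no replicate numbers. At 3 to 10 counts a library, *Ptf1a* cannot show any but a large difference.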

Other observations

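Regional and non-neural lists not described above held no gene past the adjusted threshold. Forebrain genes had 10 of 12 log2 fold changes negative and a median of -0.19. *Dlx5* averaged 12.9 and 9.82 CPM (adjusted p = 0.997) and *Dlx2* 32.4 and 25.2 CPM (adjusted p = 0.999). Hypothalamic genes had 10 of 12 negative and a median of -0.39, with *Rax* at 0.921 and 0.226 CPM (adjusted p = 0.968) and *Lhx6* at 60.4 and 51.8 CPM (adjusted p = 0.999). Medians were 0.16 for cerebellar genes (*Car8* 29.1 and 37.7 CPM, *Eomes* 21.8 and 14.3 CPM, *Gabra6* listed at 0 in every control brain, *Neurod1* listed at 0 in all libraries), -0.067 for Cajal-Retzius, 0.30 for sensory ganglion, 0.40 for Schwann cell, 0.12 for skeletal muscle, -0.14 for blood, 0.13 for meninges, -0.22 for choroid plexus and 0.10 for thyroid and kidney genes. *Slc6a13*, a GABA transporter of the meninges, was higher in every exposed brain (33.6 to 40.4 CPM) than in every control brain (25.4 to 32.3 CPM, adjusted p = 0.789).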
